A study of Homo sapiens with 6 samples.

Results

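Subunits of the mitochondrial respiratory chain and of ATP synthase that are encoded in the nucleus were examined in a lung cancer line with AKR1B10 silenced. The members were the protein-coding genes of the gene table whose symbols begin with NDUFA, NDUFB, NDUFC, NDUFS or NDUFV and a digit, with UQCR, with COX4 to COX8, or with ATP5. This rule found 86 genes among 58735 in the table, of which 19951 are protein-coding. By complex they divided into 37 genes of complex I, 9 of complex III, 19 of complex IV and 21 of complex V. Those of complex V include ATP5IF1 and ATP5S, an inhibitor and a factor that match by name and are not structural subunits. NDUFA4 and its paralog NDUFA4L2 were placed with complex IV, where the NDUFA4 protein is now known to reside.

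Complex I (NADH dehydrogenase), complex III (cytochrome bc1) and complex IV (cytochrome c oxidase) pass electrons from NADH to oxygen and pump protons across the inner mitochondrial membrane. Complex V, the ATP synthase, lets the protons back through its membrane rotor and makes ATP in its F1 head. These complexes are assembled from proteins of both genomes, because mitochondrial DNA encodes a few core membrane subunits and the nucleus encodes all others. Many subunits have tissue-restricted paralogs, and nuclear factors such as NRF1 and the ETS factor GABPA are known to bind promoters of many of the nuclear genes.

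The cells were PC9-BrM3, a derivative of the lung adenocarcinoma line PC9 selected for brain metastasis. In BrM3-shAKR1B10 (3 libraries, genotype AKR1B10 knockdown) the cells carried a short hairpin RNA against AKR1B10, an aldo-keto reductase. In BrM3-shNC (3 libraries, genotype given as WT) they carried a negative control hairpin. Both hairpins were delivered in the LV2 lentiviral vector, and both groups were in routine culture with no drug. The RNA-seq was done to learn how AKR1B10 promotes Warburg metabolism in these cells. The paper describes that as turning glucose into lactate in preference to oxidative phosphorylation, which the respiratory chain and ATP synthase carry out. The study's figure legends give shAKR1B10 as 1 hairpin (vector 1), so an effect of that hairpin and an effect of AKR1B10 loss cannot be told apart. The labels do not say that the libraries came from separate cultures, so p-values measure the spread between these libraries only, which may be technical.

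AKR1B10 itself fell to 13.9% of its control level in FPKM (fragments per kilobase of gene, scaled to library size), from 782 ± 14.6 to 109 ± 1.52 (SD, n = 3 each; log2 fold change -2.85, limma adjusted p = 1.59e-07). The libraries held 16964504 to 18709028 reads on genes. The epithelial markers EPCAM, CDH1 and KRT7, KRT8, KRT18 and KRT19 averaged 49.2 to 935 FPKM, while NKX2-1, NAPSA, SFTPB and SFTPC, which mark differentiated lung adenocarcinoma, were all below 1 FPKM. Of 9 markers of blood, vessel, stromal and brain cells, 7 were below 1 FPKM, and COL1A1 and MBP averaged 1.60 and 2.99 FPKM and were lower in BrM3-shAKR1B10. Their part in the values of the subunit genes was not tested.

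The levels of the subunit genes spanned several orders of magnitude. Of the 86 members, 74 had a mean of at least 1 FPKM over the 6 libraries and were tested. In complex I they ran from NDUFA13 at 1.66 FPKM to NDUFS5 at 330.3 FPKM, and in complex III from UQCRHL at 3.96 to UQCRH at 194 FPKM. In complex IV the lowest tested gene was COX7A2L at 15.1 FPKM and the highest was COX8A at 267 FPKM. In complex V they ran from ATP5S at 2.77 FPKM to ATP5F1B, the catalytic beta subunit of the F1 head, at 252 FPKM. FPKM divides by the summed exons of all annotated transcripts of a gene, which was a median of 1.75 times the length of the principal transcript among members, so levels of different subunits do not read as amounts of equal transcripts. UQCRHL is an intronless near copy of UQCRH, and reads may be split between them.

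Complex IV showed a clear division between widely expressed and tissue-restricted forms. All 12 widely expressed members were tested, whereas none of the 7 tissue forms or paralogs reached 1 FPKM. COX4I2, COX6A2 and COX7B2 had no read in any library, which allows up to 0.256 FPKM per library for COX4I2, 0.328 for COX6A2 and 0.22 for COX7B2 (3 reads, counting error only). COX6B2, COX8C and NDUFA4L2 were detected at no more than 0.342 FPKM in any library. The remaining untested genes were NDUFA7, NDUFV2 and the readthrough locus NDUFC2-KCTD14 of complex I, and ATP5MGL and the readthrough locus ATP5MF-PTCD1 of complex V. NDUFV2, a core subunit that carries an iron-sulfur cluster, stood just under the limit, at 1.19, 1.001 and 0.853 FPKM in the knockdown libraries and 0.663, 0.916 and 0.788 FPKM in the controls. An annotated neighbour, AP005263.1, overlaps 28.4% of its exon bases, and reads there may have been assigned to neither gene.

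COX7A1, the heart and muscle form of subunit 7A, was the untested gene whose groups stood farthest apart. Its level was 0.169, 0.165 and 0.112 FPKM with AKR1B10 silenced and 0.704, 0.940 and 0.817 FPKM in the controls. These values rest on 3, 3 and 2 reads against 13, 16 and 15 reads, so the groups did not overlap but the level was very low in both. The ratio of the summed reads, adjusted for library size, was 0.182 with a 95% exact interval of 0.0740 to 0.391, which covers counting error only. With no filter on low values, limma gave it an adjusted p of 0.00438. Its widely expressed counterpart COX7A2 was present at 54.5 ± 2.40 against 50.1 ± 0.715 FPKM (SD, n = 3 each).

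As a set the nuclear subunit genes differed little between the groups. At an adjusted p under 0.05 in limma, 7 members were lower and 9 higher in BrM3-shAKR1B10, and 58 of the 74 tested were not called. Among all 13150 genes tested, 23.1% were called lower and 19.4% higher, so that 42.5% were called in either direction against 21.6% of the members. With no filter on low values, which brought 31583 genes into the test, the shares were 15.5% of all genes and 15.9% of the members. Among well expressed genes, 13 of 57 members with at least 10 FPKM were called (22.8%), beside 53.6% of all genes at that level. The groups did not overlap for 25 of the 74 members (33.8%), and for 54.7% of all genes tested.

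The sizes were small as well. The median log2 fold change of the tested members was 0.01, with a range from -0.53 to 0.35, and the median of all genes tested was -0.01. The median absolute change was 0.12 for the members and 0.20 for all genes. Among those with at least 10 FPKM it was 0.11 for the members and 0.17 for all genes. The median SE there was 0.059 for the members and 0.047 for all genes. A change of at most 0.2 on the log2 scale in either direction was seen for 57 of 74 members (77.0%) and for 49.6% of all genes. Of the 58 members that were not called, 53 had a 95% interval that lay wholly within 0.5 on the log2 scale either way, so a change as large as the fold threshold lay outside their intervals. With the added requirement of a log2 fold change beyond 0.5, 1 member was lower (UQCR11) and 0 were higher, beside 7.45% and 5.83% of all genes tested. At an unadjusted p under 0.05 there was also no member higher by more than 0.5, since the largest rise was 0.35 (NDUFA3).

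**Figure D1:**
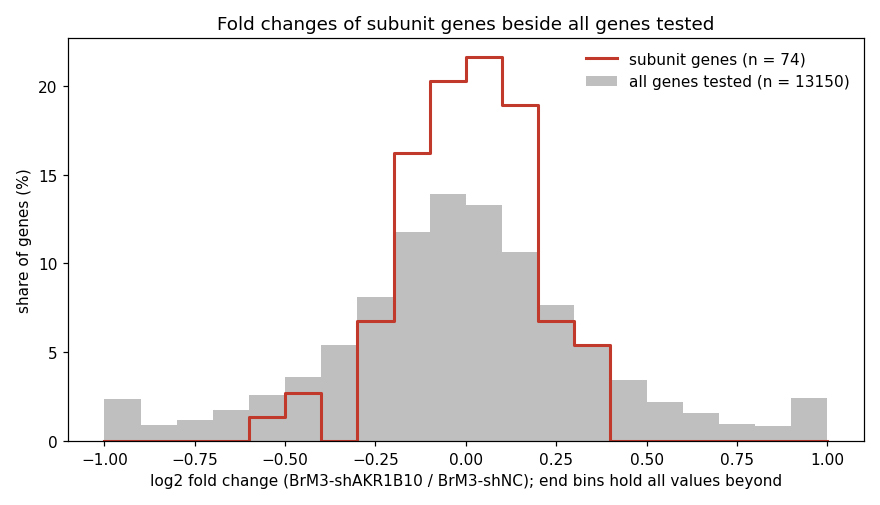
Share of genes in each bin of log2 fold change, for all 13150 genes tested (grey bars) and for the 74 tested subunit genes (red line). The subunit genes are gathered near 0, with 77.0% of them within 0.2 on the log2 scale.

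The number of members called higher depended on the control libraries. It was 15 without BrM3-shNC replicate 1 and 5 without BrM3-shNC replicate 3, where 17.5% and 16.6% of all genes were higher. The number called lower lay between 5 and 10 when any library was left out, beside 19.3% to 21.2% of all genes. In the voom test on reads recovered from the FPKM values, 7 members were lower and 20 were higher, and the split over all genes turned from 3044 lower and 2548 higher to 2781 lower and 3537 higher. Scaling to TPM gave 5 members lower and 13 higher, and quantile normalization gave 3 and 13, where all genes split into 2561 lower and 2909 higher under TPM and 2751 and 2790 under quantile normalization. Calls for NDUFA3, NDUFB5, NDUFS8, UQCR11, UQCRC1, ATP5MC2 and ATP5MG were made in all 16 alternatives as well.

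**Figure D2:**
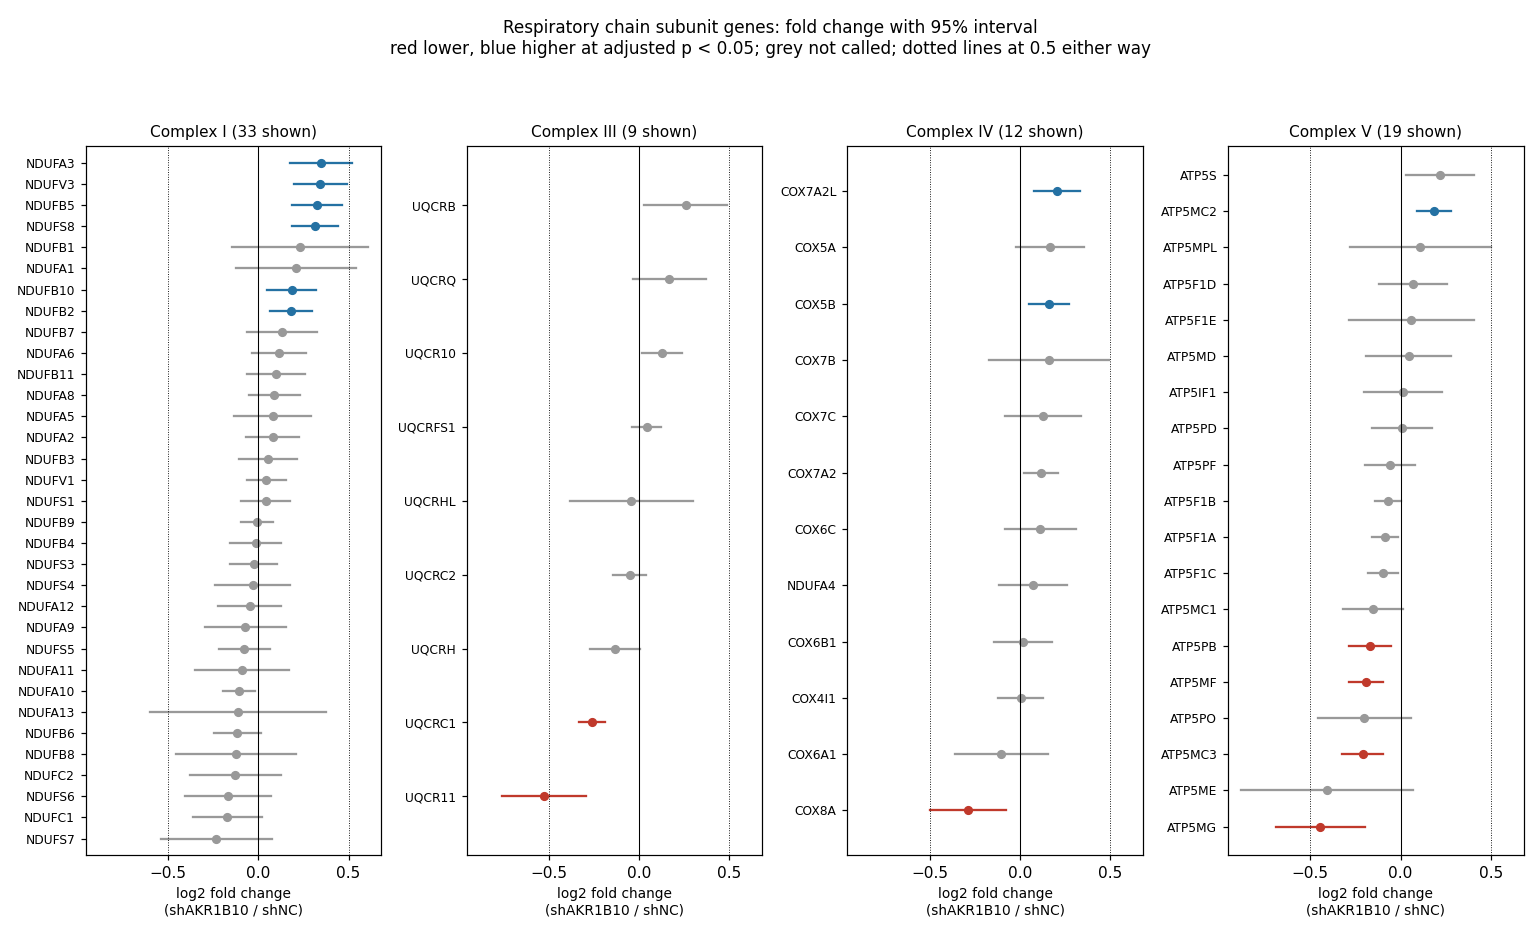
Log2 fold change (BrM3-shAKR1B10 over BrM3-shNC, x axis) of tested subunit genes with their 95% intervals from limma, by complex, with 1 gene of complex I not shown. Called genes are red (7 lower) or blue (9 higher), grey genes were not called, and only UQCR11 lies beyond the dotted lines at 0.5.

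Complex I had 6 members called higher and 0 lower out of 34 tested, with a median log2 fold change of 0.02. The share called higher was 17.6%, near the 19.4% of all genes tested, and the share called lower was 0% beside 23.1%. At an unadjusted p under 0.05 in limma 6 were higher and 2 lower. In the voom test on recovered reads 9 were higher and 0 lower, beside 26.9% and 21.1% of all genes. In the leave-one-out fits 4 to 7 were higher and 0 to 2 lower, beside 14.6% to 17.5% and 19.3% to 21.2% of all genes. The core of the peripheral arm, which takes electrons from NADH and hands them along iron-sulfur clusters to ubiquinone, was mostly flat. NDUFS8, which carries iron-sulfur clusters close to the quinone site, was at 29.9, 27.8 and 30.9 FPKM in the knockdown libraries and 22.7, 25.0 and 23.7 FPKM in the controls. Every knockdown library was above every control library, and NDUFS8 was higher by a log2 fold change of 0.31 ± 0.05 (SE, limma adjusted p = 0.00421).

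No other tested core gene was called. NDUFV1, which binds NADH and flavin, had a log2 fold change of 0.04 with a 95% interval of -0.06 to 0.15. NDUFS1 had 0.04 (-0.10 to 0.18) and NDUFS3 had -0.03 (-0.16 to 0.10), and the sign of NDUFS3 turned under quantile normalization, TPM and voom. NDUFS7 had the widest interval, -0.54 to 0.07, around -0.23. Overlapping loci (2, of which AC005329.1 is the larger) cover 49.1% of the exon bases of NDUFS7, and it was called lower only when BrM3-shNC replicate 1 was left out.

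Accessory subunits surround the core and are needed for its assembly and stability. Among the 28 tested, 5 were higher (17.9%, beside 19.4% of all genes). NDUFA3, in the membrane arm, was at 26.0, 23.3 and 26.0 FPKM against 19.8, 21.3 and 18.1 FPKM in the controls. The 2 groups were apart in every library, and the log2 fold change was 0.35 ± 0.07 (SE, limma adjusted p = 0.00885). NDUFV3, at the NADH-binding end of the peripheral arm, was at 3.87, 3.59 and 3.62 FPKM against 2.80, 3.01 and 2.85 FPKM. It too was higher in every knockdown library, by a log2 fold change of 0.34 ± 0.06 (SE, limma adjusted p = 0.00511). NDUFB5, in the membrane arm, was at 18.2, 16.6 and 15.6 FPKM against 13.3, 13.6 and 13.1 FPKM, a log2 fold change of 0.33 ± 0.06 (SE, limma adjusted p = 0.00486). The control values of NDUFB5 lay close together and all knockdown values were above them.

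The other called accessory genes of complex I changed less. NDUFB10 had a log2 fold change of 0.18 (limma adjusted p = 0.0391) and NDUFB2 one of 0.18 (limma adjusted p = 0.0241), and 35.9% of the exon bases of NDUFB2 are shared with 3 other annotated loci, BRAF first among them. The call for NDUFB10 was lost in 5 of 6 leave-one-out fits and that for NDUFB2 in 4 of 6. NDUFS5, the most abundant complex I gene, was at 322, 324 and 318 FPKM against 361, 348 and 310 FPKM. The highest and the lowest of its values were both in control libraries, and it was not called (log2 fold change -0.08 ± 0.06, SE). Without BrM3-shNC replicate 3 it was called lower, by 0.14 on the log2 scale.

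With all libraries, complex III held the tested member with the largest fall, while without BrM3-shNC replicate 3 ATP5ME of complex V fell further. UQCR11, a small subunit bound near the Rieske protein, was at 5.21, 4.82 and 5.43 FPKM with AKR1B10 silenced, against 7.78, 6.46 and 8.23 FPKM with the control hairpin. All knockdown values lay below all control values, on 187 to 207 reads against 235 to 323 reads. UQCR11 fell by 0.53 ± 0.10 on the log2 scale (SE, limma adjusted p = 0.00564), a level 30.5% lower. Across the leave-one-out fits the estimate ran from -0.63 to -0.46, and UQCR11 did not pass the fold threshold without BrM3-shAKR1B10 replicate 2 or without BrM3-shNC replicate 1 or 3. It missed that threshold under TPM (-0.49), in the voom test (-0.49) and with a pseudocount of 1 (-0.46) too, while it was called lower in each of these.

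UQCRC1, 1 of 2 core proteins of complex III that face the matrix, showed the smallest spread of the called genes. It was at 43.0, 42.7 and 43.5 FPKM against 52.1, 52.3 and 50.5 FPKM in the controls. The groups were well apart, and it fell by 0.26 ± 0.03 on the log2 scale (SE, limma adjusted p = 0.000689). Its partner UQCRC2 was at 42.6 ± 0.928 against 44.1 ± 1.66 FPKM (SD, n = 3 each) and was not called, with a 95% interval of -0.14 to 0.04. The Rieske iron-sulfur protein UQCRFS1, which passes electrons to cytochrome c1, was not called either (0.04, interval -0.04 to 0.12).

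The small subunits of complex III did not share a direction. UQCRB and UQCR10 had log2 fold changes of 0.26 and 0.13 with adjusted p-values in limma of 0.0707 and 0.0697, and their groups did not overlap. Both were above every control library and neither was called. UQCRH, the acidic hinge protein, had -0.13 (limma adjusted p = 0.109), and was called lower without BrM3-shNC replicate 3 (-0.19, limma adjusted p = 0.0313). Over the 9 members 2 were lower and 0 higher in limma (2 and 2 at an unadjusted p under 0.05), so that 22.2% were lower beside 23.1% of all genes. The median log2 fold change was -0.04, and it was 0.04 without BrM3-shAKR1B10 replicate 3. Without BrM3-shNC replicate 1, and in the voom test, 3 members of complex III were called higher, beside 17.5% and 26.9% of all genes.

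Complex IV had values above 0 for 10 of its 12 tested members, with a median log2 fold change of 0.12, although 2 were called higher (16.7%, beside 19.4% of all genes) and 1 lower (8.33%, beside 23.1%). In the voom test 6 were higher and 1 lower, where 26.9% of all genes were higher. When 1 library was left out, 0 to 4 were higher. The count was 0 without BrM3-shNC replicate 3 and 4 without BrM3-shNC replicate 1, beside 16.6% and 17.5% of all genes. The 10 of 12 stood in each of the other scalings (TPM, quantile normalization and voom), and was 8 to 10 when 1 library was left out. COX5B, a zinc-binding subunit on the matrix side, was at 137, 128 and 123 FPKM against 117, 117 and 113 FPKM. Its knockdown values were all above the controls, and it rose by 0.16 ± 0.05 on the log2 scale (SE, limma adjusted p = 0.0279). This call was lost in 4 of the 6 leave-one-out fits, with adjusted p-values in limma up to 0.0804.

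COX7A2L, a relative of subunit 7A known for joining complexes III and IV into supercomplexes, was at 17.2, 15.7 and 15.5 FPKM against 14.2, 14.3 and 13.4 FPKM. The groups were apart, and it rose by 0.21 ± 0.05 on the log2 scale (SE, limma adjusted p = 0.0207). The call was lost without BrM3-shNC replicate 3. COX7A2, the usual 7A subunit, just missed the threshold at 0.12 ± 0.04 (SE, limma adjusted p = 0.0511) and was called higher in 7 of 16 alternatives.

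COX8A, the most abundant gene of complex IV, went the other way. It was at 250.3, 228 and 242 FPKM in the knockdown libraries and 261, 289.6 and 332 FPKM in the controls. The highest knockdown library was just below the lowest control library, and the log2 fold change was -0.29 ± 0.09 (SE, limma adjusted p = 0.0378). The call was lost in 10 of 16 alternatives, among them the fit with the replicate block (adjusted p = 0.0570) and 5 of 6 leave-one-out fits, and AP000721.1 overlaps 34.5% of its exon bases. No call was made for COX4I1, the subunit through which ATP inhibits the oxidase, which had a log2 fold change of 0.00 with an interval of -0.12 to 0.13. COX6A1, COX6B1, COX7B and NDUFA4 had -0.10, 0.02, 0.16 and 0.07, and were not called. Among them COX6A1 was high in BrM3-shNC replicate 3 (33.3 FPKM) and COX7B in BrM3-shNC replicate 1 (45.7 FPKM), against 24.9 to 26.8 and 31.6 to 42.1 FPKM in all other libraries. Without BrM3-shNC replicate 1 COX7B was called higher, by 0.33 on the log2 scale (limma adjusted p = 0.00270).

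Complex V had 4 members called lower and 1 higher out of 19 tested, with a median log2 fold change of -0.07. The share called lower was 21.1% beside 23.1% of all genes tested, and that called higher was 5.26% beside 19.4%. Quantile normalization left 1 lower and 1 higher, and moved the median to -0.00073, and voom moved it to -0.021. The F1 head, which holds the catalytic sites, had 0 of 5 genes called by limma and by voom, and 2 lower at an unadjusted p under 0.05. ATP5F1A, its alpha subunit, was at 32.8, 32.5 and 32.7 FPKM against 35.5, 34.5 and 34.2 FPKM. Its groups were apart by a narrow gap, and its log2 fold change of -0.09 ± 0.03 (SE) had a limma adjusted p of 0.0533. ATP5F1B had -0.07 with an interval of -0.14 to 0.0016, and its sign turned under quantile normalization. The intervals of all 5 F1 genes lay between -0.29 and 0.41.

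Among the genes of the membrane rotor, 1 was called higher and 1 lower. ATP5MC1, ATP5MC2 and ATP5MC3 encode the same mature c subunit, the protein that forms the rotor ring, behind different mitochondrial import sequences. ATP5MC2 was at 27.9, 27.4 and 28.3 FPKM against 24.5, 25.5 and 23.5 FPKM, a log2 fold change of 0.19 ± 0.04 (SE, limma adjusted p = 0.00949). ATP5MC3 had the highest FPKM of them but the fewest reads per kilobase of principal transcript. It was at 36.3, 33.9 and 34.1 FPKM against 42.2, 40.2 and 38.3 FPKM, a log2 fold change of -0.21 ± 0.05 (SE, limma adjusted p = 0.0127). Neither gene had overlapping groups, so ATP5MC2 rose where ATP5MC3 fell, although the call for ATP5MC3 was lost under quantile normalization. ATP5MC1 had -0.15 ± 0.07 (SE, limma adjusted p = 0.120), and was called lower without BrM3-shAKR1B10 replicate 1 (-0.22, limma adjusted p = 0.0347).

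The summed level of the c-subunit genes was 83.9 ± 3.12 FPKM with AKR1B10 silenced, against 88.4 ± 1.44 FPKM in the controls (SD, n = 3 each; two-sided exact permutation p = 0.2). Within that sum ATP5MC2 made up 31.9%, 33.7% and 34.2% in the knockdown libraries and 27.5%, 28.5% and 27.1% in the controls. The shares did not overlap, and their mean rose by 5.55 percentage points (two-sided exact permutation p = 0.1, the smallest that 3 against 3 libraries can give). The share of ATP5MC3 went from 45.5 ± 1.78% to 41.4 ± 0.246% (SD, n = 3 each), also with no overlap and exact permutation p = 0.1. The share of ATP5MC1 was 25.3 ± 1.13% against 26.8 ± 1.91% (SD, n = 3 each; exact permutation p = 0.3). The sum and the shares weight each gene by its annotated length, so their changes between libraries depend on those lengths too. The ratio of a single gene's FPKM between libraries does not.

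**Figure D3:**
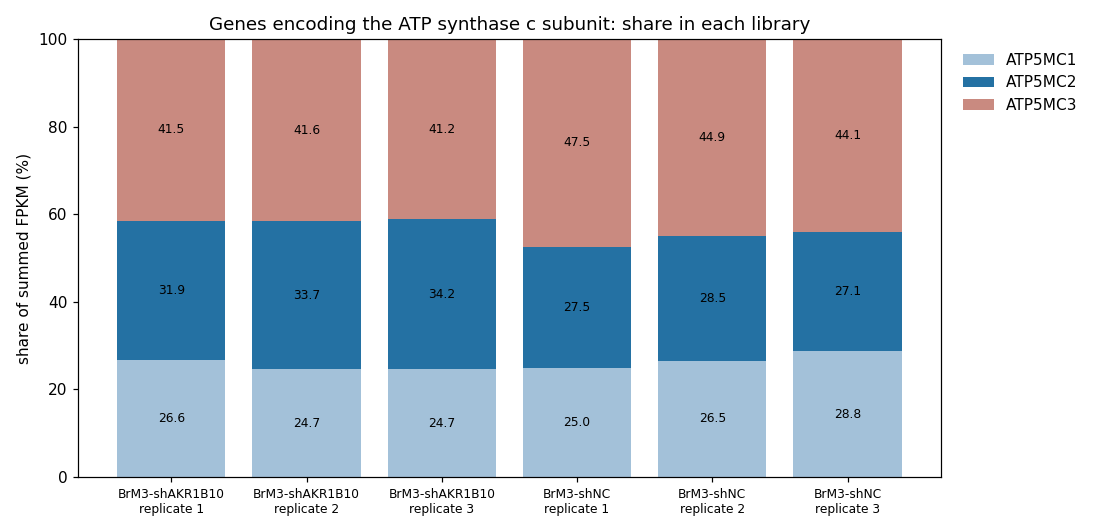
Share of ATP5MC1, ATP5MC2 and ATP5MC3 in their summed FPKM (y axis, percent) in each of the 6 libraries. ATP5MC2 is at 31.9% to 34.2% in the BrM3-shAKR1B10 libraries and at 27.1% to 28.5% in the BrM3-shNC libraries.

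Subunits around the rotor and the stalk made up the other falls in complex V. ATP5MG, subunit g of the membrane domain, was at 5.54, 5.45 and 5.05 FPKM against 7.94, 6.21 and 7.92 FPKM. No libraries overlapped, and it fell by 0.44 ± 0.10 on the log2 scale (SE, limma adjusted p = 0.0135). ATP5MF, subunit f, was at 32.3, 32.1 and 33.7 FPKM against 38.6, 35.9 and 37.5 FPKM, with a log2 fold change of -0.19 ± 0.04 (SE, limma adjusted p = 0.00900). It was lower in every knockdown library, and its call was lost under quantile normalization. ATP5PB, subunit b of the peripheral stalk that holds the head still, had a log2 fold change of -0.17 ± 0.05 (SE, limma adjusted p = 0.0301), and its call was lost in 8 of 16 alternatives, 4 of them leave-one-out fits. ATP5ME, subunit e and the partner of ATP5MG, had a value of -0.41 but ranged from 7.69 to 13.8 FPKM within the controls and was not called (limma adjusted p = 0.143). Without BrM3-shNC replicate 3 it was called lower, by 0.60 on the log2 scale, and 61.6% of its exon bases are overlapped by MYL5 on the opposite strand.

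Added over all members of a complex, levels differed by a few percent. Such sums also weight each gene by its annotated length. The summed FPKM of complex V was 753, 743 and 750.4 in BrM3-shAKR1B10 and 808, 774 and 767 in BrM3-shNC, a ratio of 0.957. The groups did not overlap, at an exact permutation p of 0.1. Ratios were 1.03 for complex I, 0.980 for complex III and 0.985 for complex IV, with exact permutation p-values of 0.5, 0.7 and 0.3, and 0.993 for all members (exact permutation p = 0.8). A test of the difference between complexes was not run, so the counts of each complex are given side by side only.

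The 13 subunit transcripts of the mitochondrial genome took 5.98% to 7.11% of all reads, against 0.695% to 0.752% for the 86 nuclear members together. Of these transcripts limma called 4 lower (MT-ND1, MT-ND2, MT-ND6 and MT-ATP6) and 0 higher, with 6 and 0 at an unadjusted p under 0.05 and 6 and 2 in the voom test. The 4 are 30.8% of these transcripts, beside 23.1% of all genes called lower. Over all 13 the median log2 fold change was -0.11. MT-ND2 fell by 0.33 ± 0.05 and MT-ATP6 by 0.34 ± 0.09 on the log2 scale (SE, limma adjusted p = 0.00209 and 0.0227). MT-ND6, with the largest fall (0.42), lies on the other strand of the mitochondrial genome from its neighbours, and whether counting used the strand is not given in the sources used here. The ratio of mitochondrial to nuclear summed FPKM was 17.4 ± 0.696 in BrM3-shAKR1B10 and 18.7 ± 1.47 in BrM3-shNC (SD, n = 3 each; exact permutation p = 0.3), with BrM3-shNC replicate 1 the highest at 20.1. Libraries were made from RNA captured on poly-T beads, so how much of each mitochondrial transcript was captured depends on its tail.

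The neighbours of these complexes were read from lists of other respiratory genes. Complex II (succinate dehydrogenase), whose subunits are all nuclear, had 2 of 4 genes called lower, SDHD (-0.17) and SDHB (-0.13), and 0 higher by limma (23.1% and 19.4% of all genes), with 3 lower and 0 higher at an unadjusted p under 0.05 and none of the 4 called by voom. NDUFAB1 of complex I, CYC1 of complex III and the electron carrier CYCS carry other names, and 0 of these 3 were called by limma or voom (1 lower at an unadjusted p under 0.05). Of 47 tested assembly factors 11 were lower and 5 higher, with a median log2 fold change of -0.07, so 23.4% were lower beside 23.1% of all genes and 10.6% higher beside 19.4%. The voom test called 7 lower and 10 higher, and 21.1% and 26.9% of all genes. COX14, an early assembly factor for complex IV, was higher, at 24.5 ± 0.677 against 16.5 ± 1.79 FPKM (SD, n = 3 each; log2 fold change 0.57, limma adjusted p = 0.00149). The lowest of the complex IV factors was SCO1, a copper chaperone, at -0.29, and that of the complex I factors was COA1, at -0.37.

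Several regulators of respiratory genes were lower. Of 13 tested, 8 were called lower (61.5%, beside 23.1% of all genes) and 1 higher (7 and 3 by voom), with a median log2 fold change of -0.24. TFAM, which packages and transcribes mitochondrial DNA, was at 15.7, 15.3 and 14.1 FPKM against 23.3, 22.8 and 22.1 FPKM, and fell by 0.59 ± 0.05 on the log2 scale (SE, limma adjusted p = 0.000205). NRF1 had -0.42, GABPA -0.33, GABPB1 -0.42, YY1 -0.26 and MYC -0.62, all called lower, and ESRRA, a nuclear receptor, was higher by 0.26. PPARGC1B, a coactivator just under the limit for testing, was at 1.04, 1.40 and 1.15 FPKM against 0.685, 0.817 and 0.697 FPKM, with no overlap, and with no filter its limma adjusted p was 0.0552. The list was chosen with results of these libraries known, so its count describes these genes and is not independent evidence of a direction.

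Promoter sequences were searched for motifs of those regulators, since transcripts of these regulators were called lower and most subunit genes were not called. RefSeq promoters (GRCh38.p14, 250 bases before to 50 after the start site) were matched to 69 of the 86 members by symbol. The NRF1 motif GCGCATGC, read on both strands, was in 15.9% of these promoters, in 3.27% of all 27305 promoters and in 5.93% of those of tested genes. Where it is followed by GC the palindrome holds both of its readings. The ETS motif CCGGAAGT was in 13.04% of the member promoters (4.44% of all, 9.68% of tested genes) and the YY1 motif AAGATGGCG in 10.1% (1.85% and 4.21%), each on both strands. The windows below are those of the called members that hold a match, on the strand of the gene, with the motif or its reverse complement in capitals.
UQCR11, ETS, chr19:1605561-1605590, minus strand: tccaaccctcgCCGGAAGTtactgtaagtg
COX8A, ETS, chr11:63974590-63974619, plus strand: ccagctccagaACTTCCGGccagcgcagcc
COX5B, ETS, chr2:97646014-97646043, plus strand: gaagcccgcccCCGGAAGTccctcctgtct
COX5B, ETS, chr2:97646046-97646075, plus strand: gcagcttgttcCCGGAAGTtttgctgctag
COX5B, NRF1, chr2:97645915-97645944, plus strand: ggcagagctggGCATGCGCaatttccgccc
ATP5MC2, NRF1, chr12:53676105-53676134, minus strand: gcccgggtcacGCATGCGCtgagccttcct
UQCRC1, YY1, chr3:48609604-48609633, minus strand: ctgcagctggAAGATGGCGgcgtccgtggt

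The ETS match lay 117 bases before the start site of UQCR11 and 19 bases before that of COX8A, both of which were lower. COX5B, which was higher, held an ETS match starting 37 bases before its start site, another that spans the start site, and an NRF1 match upstream. ATP5MC2, also higher, held an NRF1 match, and UQCRC1, which was lower, held the YY1 match 24 bases after its start site. Of the 11 tested members with an NRF1 match limma called 0 lower and 2 higher (1 and 2 at an unadjusted p under 0.05, and 0 and 3 by voom). Of 9 with an ETS match 2 were lower and 1 higher (2 and 2 by voom). Of 6 with a YY1 match 1 was lower and 0 higher in limma (1 and 0 unadjusted, and 1 and 1 by voom). These small counts stand beside 23.1% of all genes called lower and 19.4% higher, and most members with a motif were not called. A match describes letters in the reference sequence and not binding in these cells.

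Features of counting that could move a value were set beside the calls. In the annotation 21 members share at least 20% of their exon bases with another gene, of which 15 were tested and 2 were called (COX8A and NDUFB2), or 13.3% beside 21.6% of all tested members and 42.5% of all genes. Their median level was 5.30 FPKM against 26.9 FPKM for the other members. Pseudogenes named after 42 members took at most 4.54% of the reads of the gene they copy, in COX6A1, among 69 members with at least 1000 reads. With fewer reads the share was higher for NDUFB8 (5.27%) and NDUFV2 (9.96%). The tested members had 79.7 to 10435 reads per library with a median of 1433.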

How the data were processed

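Poly-T selected mRNA of 6 libraries was sequenced in pairs of 150 bases. Per the study's methods and the submitters' processing notes, the authors filtered out adapter-containing, ambiguous and low-quality reads. Alignment was by HISAT2 2.0.5 and gene counting by featureCounts 1.5.0-p3. The genome build, strand setting and treatment of reads with several matches are not given in the sources used here. The deposited FPKM values were used. Gene identifiers, positions and strands of all 58735 genes match GENCODE 29 on GRCh38. FPKM multiplied by gene length gave whole reads for 100% of values (within 0.01), so the depth is known, 16964504 to 18709028 reads on genes, with a library size close to a median-of-ratios factor. Intervals and floors (3 reads) cover counting error only.

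Groups came from the sample titles. Genes with a mean of at least 1 FPKM (13150) were tested by limma (version 3.58.1, R 4.3.3, lmFit and eBayes with trend) on log2(FPKM + 0.1). P-values were adjusted by the Benjamini-Hochberg method across those genes. Fold changes are on that log2(FPKM + 0.1) scale, which understates changes of low genes. A call needs an adjusted p under 0.05, and the fold rule also a log2 fold change beyond 0.5 in size. Single quantities were compared by two-sided exact permutation tests, which cannot go below 0.10 here. In simulated libraries with 200 genes changed, 156 of 192 tested were called in the right direction, with 12 false calls. How often a difference as small as that of most members would be called was not tested. Members and lists were chosen with earlier results of these data known. Named genes were the 3 lowest and 3 highest called members of each complex, core and paralogous subunits (1 is not reported here), the highest and lowest levels, and the untested genes. NDUFB2, NDUFB10, UQCRB, UQCR10, ATP5PB, ATP5ME and the regulators other than MYC and ESRRA were named after their values were seen. DMAC2L, an assembly-list gene, stands in the table as ATP5S, a member. Alternatives were other pseudocounts and filters, TPM, quantile normalization, eBayes without a trend, voom on recovered reads, protein-coding genes only, the replicate number as a block, and each library left out.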

Additional observations from a re-analysis of the deposited data

How the results depend on the processing

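AKR1B10 kept its call in all 16 alternatives. Quantile normalization lowered the number of members called lower to 3, and voom raised the number called higher to 20. When each library was left out, 5 to 10 members were lower and 5 to 15 higher. Of all genes, 19.3% to 21.2% were lower and 14.6% to 17.5% higher in those fits. The fold rule was passed downward by 0 to 2 members. That last count was 0 with a pseudocount of 1, under TPM and under voom, and 2 with no filter, where COX7A1 entered. The median log2 fold change of all members was 0.048 under TPM, 0.058 under quantile normalization and 0.061 under voom. For complex I these were 0.053, 0.049 and 0.066, and for complexes IV and V under quantile normalization and voom they were 0.17 and 0.17, and -0.00073 and -0.021. Leave-one-out medians ran from -0.077 to 0.042 for complex III and from 0.033 to 0.16 for complex IV. Signs turned for genes that were not called. Among them were ATP5F1B (0.0062) and NDUFS5 (0.0070) under quantile normalization, NDUFS3 under TPM (0.011), quantile normalization (0.019) and voom (0.023), and UQCRHL under voom (0.0088). Leaving out 1 library gave ranges across 0 for COX4I1 (-0.051 to 0.043), COX6A1 (-0.18 to 0.028), COX6B1 (-0.030 to 0.075), NDUFS3 (-0.059 to 0.017), NDUFV1 (-0.0036 to 0.068) and UQCRHL (-0.18 to 0.060). The cause was not tested for any of these.

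Replicate numbers are shared between the groups but did not pair the libraries, since the correlations of the deviations from the group means between libraries of 1 number were -0.016, 0.0039 and 0.0038. With the replicate block 17 members were called, 6 lower and 11 higher, and 15 of them were also called without it. COX8A was not called with the block. Depth limits the low genes most, and the median SE of a member's log2 fold change was 0.07.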
